A study of Mus with 8 samples.

Results

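Newborn Lin-Kit+ cells (LK, blood progenitors that carry the receptor Kit and lack lineage markers) were compared between Ifnar-/- mice, which by label carry no intact copy of the interferon receptor gene, and Ifnar+/- mice, which carry 1. Cells were taken as barcodes with at least 7500 gene UMI (unique molecular identifiers, 1 for each captured transcript) and at most 10% mitochondrial UMI. The rule gave 5891 Ifnar+/- and 5767 Ifnar-/- cells, 11658 of the 35549 cells of the series. The series measured RNA and antibody tags by CITE-seq in 8 libraries, 1 for each combination of genotype, age (P0 or P14, 14 days) and fraction (LK or LSK, which is also Sca1+). Both groups described here were P0 LK, and no treatment is given. The labels name no organ, do not describe the allele, do not say whether mice were pooled, write Ifnar without a number and state no Sca1 gate for LK cells. With 1 library a side no value has a replicate error, no test was made, and "higher" and "lower" below describe these 2 libraries.

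Type I interferons bind a receptor made of Ifnar1 and Ifnar2. The receptor activates the kinases Jak1 and Tyk2, which switch on a transcription factor complex that holds Stat2 and Irf9 and induces a broad set of antiviral genes. Irf7, itself induced, amplifies the loop, and Usp18 and Isg15 are part of the response that dampens and modifies it. In blood progenitors the pathway is known both for constant low activity and for strong responses to infection.

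Cells of the Ifnar+/- library held 302507736 gene UMI and those of the Ifnar-/- library 238229661, with medians of 46231 and 37733 UMI per cell, so the Ifnar+/- cells were deeper. The lowest cells inside the limit had 7877 and 7582 UMI, and the highest barcodes outside it had 7397 and 7466. The 2 libraries shared 7 cell barcodes, 0.119% and 0.121% of their cells. Doublets marked by Scrublet, 146 (2.48%) and 162 (2.81%), were kept. Kit, the receptor that defines the sort, had 146 and 131 CPM (UMI scaled to an equal library total) in Ifnar+/- and Ifnar-/- cells. Hepatocyte marker genes summed to 36.2 and 34.0 CPM. Macrophage marker genes summed to 2.49 and 2.13 CPM, of which Vcam1 and Adgre1 made up most, but 4 of 7 were at least 2-fold lower in Ifnar-/- cells, with a list median log2 ratio of -2.11. These were the complement genes C1qa (41 against 6 UMI), C1qb (69 against 12) and C1qc (46 against 8) and the macrophage gene Cd5l (22 against 1). Their part in the results below was not tested.

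Ifnar1 (chromosome 16, 91485032 to 91510523 of GRCm38) had 4775 UMI in Ifnar+/- and 3491 UMI in Ifnar-/- cells. These were 15.8 CPM (exact Poisson 95% interval 15.3 to 16.2) and 14.7 CPM (14.2 to 15.1). The log2 ratio of Ifnar-/- over Ifnar+/-, taken after adding 0.5 counts, was -0.11, so Ifnar1 transcripts were counted at nearly the same level in the library labelled Ifnar-/-. Ifnar2 had 64.9 and 69.0 CPM, a log2 ratio of 0.09. A 3′ count does not read a deletion elsewhere in a gene, and the state of the receptor protein was not measured.

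Genes of the interferon response were lower in the Ifnar-/- library across nearly all of the lists examined, and Oas2, Ifit1, Irf7 and Isg15 were left with few or no UMI. Of 122 counted interferon genes on 10 lists, 115 were lower in Ifnar-/- cells, 76 of them at least 2-fold, and 0 were at least 2-fold higher. Their median log2 ratio was -1.54, beside -0.03 over all 14030 genes with at least 50 UMI in 1 library. Of those 14030 genes, 161 (1.15%) were at least 2-fold lower and 24 (0.171%) at least 2-fold higher. Because the Ifnar+/- library was deeper, genes higher in it could reach that UMI minimum at a lower CPM. Interferon list genes made up 75 of the 161 lower genes (46.6%) and 0 of the 24 higher genes.

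**Figure D1:**
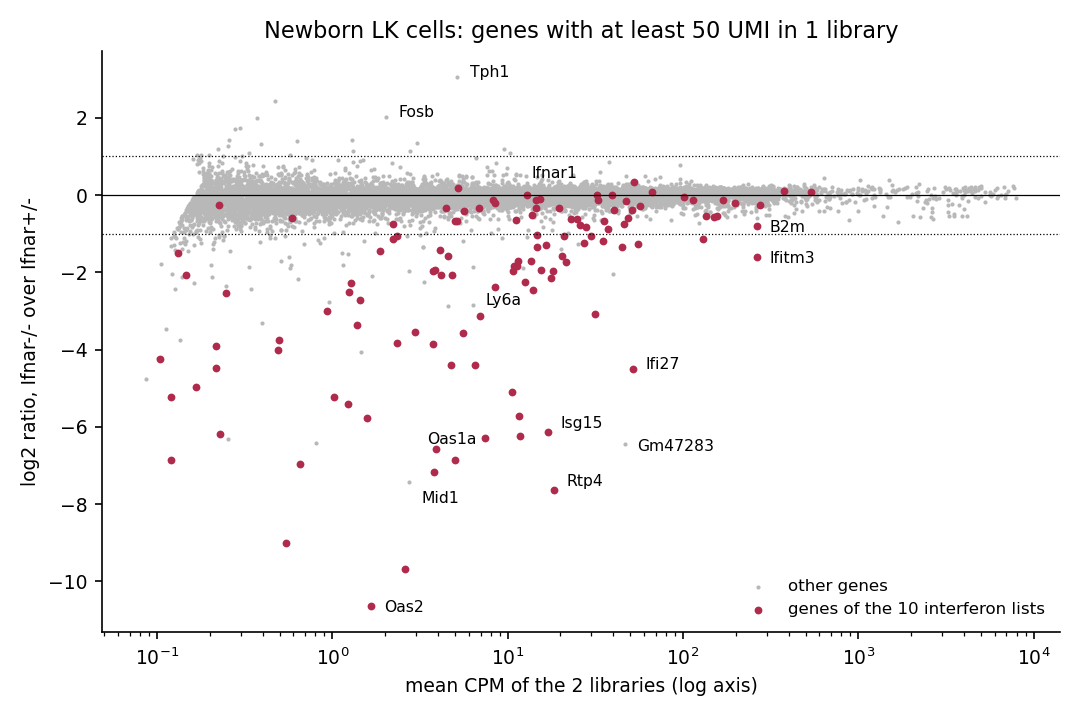
Log2 ratio of Ifnar-/- over Ifnar+/- against mean CPM (log axis) for each gene with at least 50 UMI in 1 library; dotted lines mark 2-fold, and red points are genes of the 10 interferon lists. Rtp4 lies at -7.64 and Isg15 at -6.13, while Ifnar1 sits at -0.11 and Tph1 is the highest gene at 3.05.

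In the signalling chain, the kinases and receptor chains differed little, while Irf9 was low. Jak1 had 103 and 98.8 CPM in Ifnar+/- and Ifnar-/- cells, a log2 ratio of -0.06, and Tyk2 had a ratio of 0.00. Irf9, the DNA-binding subunit of the complex, had 28.7 CPM against 6.46 CPM, a ratio of -2.15. Stat2 was less apart, with 6.45 against 4.82 CPM and a ratio of -0.42. The 7 genes of this list had a median of -0.11.

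Among 6 interferon regulatory factors 1 stood apart. Irf7, the inducible amplifier (chromosome 7, 141263183 to 141266499), had 7000 UMI, or 23.1 CPM (22.6 to 23.7), in Ifnar+/- cells. It had 73 UMI, or 0.306 CPM (0.240 to 0.385), in Ifnar-/- cells, a log2 ratio of -6.23. Irf1 (log2 ratio -0.33), Irf2 (-0.16) and Irf3 (32.3 against 32.2 CPM) were little apart. Irf5 (0.17) and Irf8 (0.33), which also act in myeloid development, were slightly higher. In P0 LSK, P14 LK and P14 LSK both were lower, Irf8 at -1.35, -0.68 and -0.54 and Irf5 at -0.34, -0.37 and -0.20. All 6 factors were lower in erythroid-like and in lymphoid-primed-like cells, classes described below.

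All 8 counted sensors of nucleic acid were lower, by folds that differed widely. Of 8 counted sensors 5 were at least 2-fold lower, with a list median of -1.57. Zbp1, a sensor of Z-form nucleic acid that can trigger cell death, had 599 against 12 UMI (log2 ratio -5.24). Dhx58 had 12.5 against 1.43 CPM (-3.13), Ddx58, the gene of RIG-I, 14.1 against 2.70 CPM (-2.38), and Ifih1, the gene of MDA5, 17.0 against 4.36 CPM (-1.96). The double-stranded RNA kinase Eif2ak2 had 48.5 against 21.5 CPM (-1.18). Tmem173, the gene of STING, differed little, with 15.2 against 14.0 CPM (-0.12).

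The Oas genes, which encode antiviral enzymes that sense double-stranded RNA, had the lowest median of the 10 lists, -6.57. Oas2 (chromosome 5, 120730333 to 120749886) had 1011 UMI in Ifnar+/- and 0 UMI in Ifnar-/- cells, at least 265-fold lower against a floor of 3 counts in the library. Oas1g had 328 UMI against 0, at least 86.1-fold lower. Oas1a had 4435 against 44 UMI (log2 ratio -6.29), Oas3 2292 against 12 (-7.17) and Oasl1 2998 against 20 (-6.85). With the genes at 0 set to that floor, the list median was -6.36. The Oas genes of the list lie between 114896926 and 120907544 on chromosome 5 and include close copies, among which the split of reads is uncertain.

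Ifit genes, which bind foreign RNA ends, had a median of -4.25 over 5 counted members. Ifit1 had 2348 against 19 UMI (log2 ratio -6.57) and Ifit3 had 280 against 16 (-3.74). Their neighbour Ifit2 was much less apart, with 1906 against 949 UMI (-0.66). All 3 lie within 112 kb on chromosome 19, between 34550550 and 34662981, with Ifit3b, which had 73 against 0 UMI, at least 19.2-fold lower.

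Isg15, a ubiquitin-like modifier, had 10159 UMI (33.6 CPM, 32.9 to 34.2) in Ifnar+/- and 114 UMI (0.479 CPM, 0.395 to 0.575) in Ifnar-/- cells, 69.9-fold lower. Usp18, which removes Isg15 and blocks the receptor, had 2734 against 101 UMI (log2 ratio -4.41). The enzymes that attach Isg15 were less apart. The E2 enzyme Ube2l6 had 20.7 against 6.35 CPM (-1.71), the E1 enzyme Uba7 19.6 against 9.62 CPM (-1.03), and the ligase Herc6 had 4120 against 2066 UMI (-0.65).

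The 36 counted antiviral effectors had a median of -1.84, and 26 were at least 2-fold lower. Ifi44 had 1561 UMI in Ifnar+/- and 1 UMI in Ifnar-/- cells, a log2 ratio of -9.68 (counting interval -15.57 to -7.78). Rtp4, a receptor chaperone induced by interferon, had 36.4 CPM (35.7 to 37.1) against 0.180 CPM (0.131 to 0.243), 199-fold lower. Ifi27 had 30183 against 1044 UMI (22.8-fold lower), and its overlapping neighbour Ifi27l2a had 6907 against 102 (53.1-fold lower). Rsad2, the gene of viperin, had 3775 against 140 UMI (-4.40), and Slfn5 2131 against 116 (-3.85).

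The membrane-bound Ifitm genes, which block viral entry and sit side by side on chromosome 7, did not move together. Ifitm3 had 397 CPM (395 to 399) against 131 CPM (130 to 133), a ratio of -1.60. Ifitm1 had 360 against 389 CPM (0.11), and Ifitm2 525 against 550 CPM (0.07). These 2 genes carried a large share of the effector counts: the list summed to 2383 CPM without the knockout and 1522 CPM with it, a smaller gap than its median gene shows.

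All 16 interferon-induced GTPases, which attack vacuoles that hold microbes, were lower, 14 of them at least 2-fold (median -2.11). Iigp1 had 725 against 13 UMI (log2 ratio -5.40), Tgtp2 1314 against 72 (-3.84) and Irgm1 38.1 against 16.2 CPM (-1.24). Gbp6 had 137 UMI against 1, a log2 ratio of -6.17 (counting interval -12.07 to -4.25). Of the Gbp genes on chromosome 3, Gbp7 had 40.2 against 19.4 CPM (-1.05) and Gbp3 1867 against 929 UMI (-0.66). Members of the Iigp, Tgtp and Gbp families share sequence, and their single counts are uncertain for that reason.

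The Ifi200 genes encode DNA-binding sensors and sit within 563 kb on chromosome 1, from 173468485 to 174031755. All 10 were lower, 9 at least 2-fold, with a median of -2.39. The spread within this 1 locus was wide: Ifi206 had 940 against 13 UMI (log2 ratio -5.78), Ifi204 760 against 58 (-3.36), Mndal 64.3 against 25.2 CPM (-1.35) and Ifi203 78.8 against 32.6 CPM (-1.27). Ifi205 was the member under 2-fold, with 213 against 111 UMI (-0.59).

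Genes of MHC class I, which presents peptides to T cells, were lower by smaller folds. Of 20 counted genes 19 were lower, 4 at least 2-fold, with a median of -0.53. B2m, the shared light chain, had 335 CPM (333 to 337) against 194 CPM (192 to 196), a ratio of -0.79. The classical heavy chains H2-K1 (-0.55) and H2-D1 (-0.57) were close to each other. The exceptions were Nlrc5, the gene of the class I transactivator, with 278 against 13 UMI (-4.02), and the non-classical genes H2-Q4 (-2.08), H2-Q7 (71 against 1 UMI, -5.23, counting interval -11.13 to -3.28) and H2-T24 (-2.26). Immunoproteasome and activator genes differed little, with Psmb8 at -0.20, Psmb10 at -0.12 and Psme2 at -0.12. All 7 MHC class II genes were on the other side of 0, with a median of 0.19 and 0 past 2-fold. Dendritic cell markers, which share H2-Aa, H2-Eb1 and Cd74 with that list, had a median of 0.52, and dendritic-like cells numbered 14 and 25. Within classes the side varied: 4 of 6 class II genes were lower in erythroid-like cells, 3 of them at least 2-fold (median -1.20), 5 of 6 in HSC-like (-0.08) and 4 of 6 in neutrophil progenitor-like cells (-0.07). In lymphoid-primed-like cells 2 of 4 were lower (median 0.06), in monocyte progenitor-like cells 1 of 4 (0.11) and in the Prg2-Prss34 cluster described below 0 of 3 (0.34). The part of dendritic cells in the summed values was not tested.

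**Figure D2:**
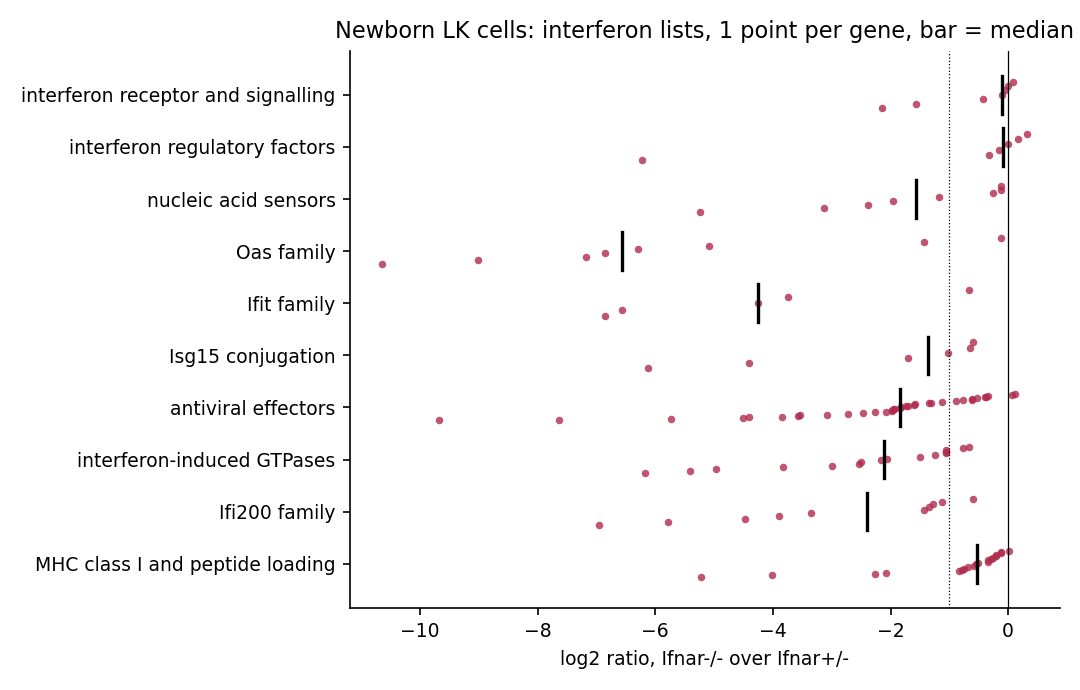
Log2 ratio of Ifnar-/- over Ifnar+/- for each counted gene of the 10 interferon lists (points), with the list median (black bar) and 2-fold lower (dotted line). Medians run from -6.57 for the Oas list to -0.08 for the interferon regulatory factors, whose 1 low point is Irf7.

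Ligands, other receptors and feedback genes were not apart in the same way. Of 10 type I interferon ligand genes only Ifnz reached 20 UMI over the 2 libraries, with 15 and 10 UMI. The interferon gamma receptor chains Ifngr1 (log2 ratio 0.03) and Ifngr2 (0.10) and the shared chain Il10rb (0.04) differed little. Suppressors of cytokine signalling had a median of -0.08 over 8 genes with 0 past 2-fold. Of 17 counted NF-kB and inflammatory targets 1 was 2-fold lower, the chemokine Cxcl10, with 160 against 34 UMI.

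The other 3 pairs (P0 LSK, P14 LK and P14 LSK) share no library with this pair, although the labels do not say whether they share mice. Of the 75 lower interferon genes, 66 of 75 with enough UMI were at least 2-fold lower in P0 LSK, where 2.26% of all genes were, and 31 of 64 in P14 LK, where 0.503% were. In P14 LSK 36 of 70 were, against 0.54% of all genes. Over all 122 interferon genes the median was -1.23 in P0 LSK, and at P14 -0.62 in LK and -0.53 in LSK, each smaller in size than here. Of the 86 lower genes on no interferon list, 33 of 72 were at least 2-fold lower in P0 LSK. At P14 the counts were 5 of 46 in LK and 10 of 64 in LSK. In P0 LSK 13 of the 72 went the other way, at least 2-fold higher, among them Ltf, Lyve1, Stab2, Cldn5, Mcpt4 and Fabp4. Of the 75 genes on interferon lists 0 did. Of the 24 higher genes, 5 of 14 were at least 2-fold higher in P0 LSK, where 4.52% of all genes were, and 2 of 9 in P14 LK, where 0.198% were. In P14 LSK 0 of 6 were, against 0.133% of all genes.

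Some of the 86 lower genes on no interferon list lie beside listed ones or belong to families known to respond to interferon. Those named here are examples, and how many of the 86 are of this kind was not counted. Ly6a, which encodes Sca1, had 11.2 CPM (10.8 to 11.6) against 1.54 CPM (1.39 to 1.71), a log2 ratio of -2.86. Rnf213, a giant ubiquitin ligase, had 64.6 against 15.5 CPM (-2.06), and Samd9l, a growth-restraining antiviral factor, 19.3 against 5.18 CPM (-1.90). Gm20559, next to Samd9l on chromosome 6, had 8.07 against 1.09 CPM (-2.88). Gm13822, between Oasl2 and Oasl1 on chromosome 5, had 507 against 58 UMI (-2.77), and AW011738, near Isg15 on chromosome 4, had 274 against 58 UMI (-1.89). Trim34a (-1.85) and Trim12c (-1.39), TRIM family genes on chromosome 7, were chosen after their values were seen. Gm4070 (837 against 39 UMI), Hsh2d (1664 against 277) and Gm20234 (1328 against 266) were low as well, and Sdc3, a heparan sulfate proteoglycan, had 315 against 55 UMI.

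A second group of low genes did not follow the interferon genes across ages. Mid1, an X-linked ubiquitin ligase gene (chromosome X, 169685199 to 169990798), had 1641 UMI in Ifnar+/- and 7 UMI in Ifnar-/- cells, 5.42 CPM (5.17 to 5.69) against 0.0294 CPM (0.0118 to 0.0605). In P0 LSK cells Mid1 had 1081 against 21 UMI. At P14 it was alike in both genotypes, with 6.80 and 5.63 CPM in LK and 5.18 and 4.84 CPM in LSK cells. Gm47283, a predicted gene, had 91.8 CPM against 1.05 CPM here and 128 against 1.38 CPM in P0 LSK. At P14 its levels were 115 and 115 CPM in LK and 110 and 125 CPM in LSK. The X-linked gene Xlr3b had 2.71 against 0.638 CPM here, 4.25 against 1.13 CPM in P0 LSK, and 2.29 and 2.42 CPM in P14 LK. All 3 were low in the newborn Ifnar-/- libraries and at the Ifnar+/- level in the P14 Ifnar-/- libraries, whereas Irf7 and Isg15 were low in Ifnar-/- cells of all 4 pairs. In each of 6 groups of newborn LK cells described below Mid1 had between 42 and 830 UMI in Ifnar+/- and at most 2 UMI in Ifnar-/- cells. Sex makeup differed between the pairs: among cells with 1 kind of sex transcript, male-only cells made up 26.0% of Ifnar+/- and 26.5% of Ifnar-/- cells here and 35.9% and 31.1% in P0 LSK. At P14 they made up 63.7% and 34.7% of LK and 63.8% and 38.8% of LSK cells. The part of sex makeup in these values was not tested.

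**Figure D3:**
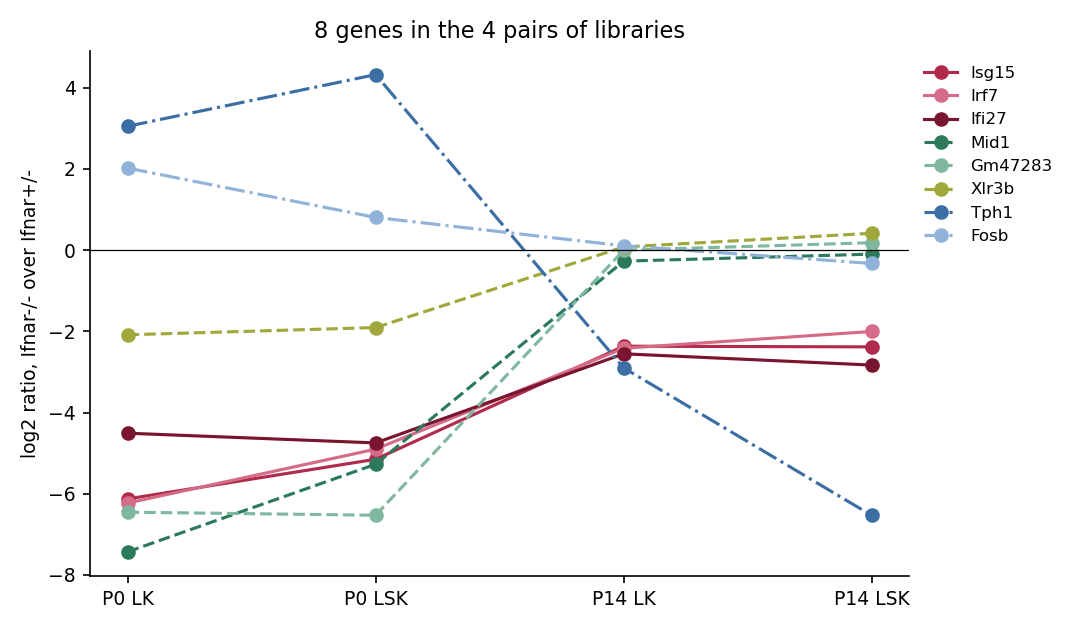
Log2 ratio of Ifnar-/- over Ifnar+/- of 8 genes in the 4 pairs of libraries, with lines that join the values of 1 gene. Isg15, Irf7 and Ifi27 are below 0 in all 4 pairs; Mid1, Gm47283 and Xlr3b are low at P0 and near 0 at P14; Tph1 is high at P0, and at P14 rests on 2 against 0 UMI in LK and 48 against 0 UMI in LSK.

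Higher genes were few and mostly low in counts. Tph1, the enzyme that starts serotonin synthesis outside the brain, led them with 335 UMI in Ifnar+/- and 2190 in Ifnar-/- cells, 1.11 CPM (0.992 to 1.23) against 9.19 CPM (8.81 to 9.59), 8.29-fold higher (log2 ratio 3.05). The ratio was 4.36 with cell classes weighted equally and 1.22 with 5 CPM added. The counts came from few cells: 12 Ifnar+/- cells and 89 Ifnar-/- cells had at least 5 Tph1 UMI, and those 89 held 87% of the Tph1 UMI of the library. Of the 89 cells, 82 were erythroid-like, 82 carried Xist and no male transcript, and 0 carried male transcripts alone. Of the 12 Ifnar+/- cells, which held 75.2% of the Tph1 UMI of their library, 2 were erythroid-like, so the summed ratio sets different kinds of cells side by side. In erythroid-like cells Tph1 had 80 against 2029 UMI, a log2 ratio of 4.97. In P0 LSK Tph1 had 56 against 869 UMI. The files do not tell cells of different mice apart.

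Immediate early genes, which respond within minutes to growth factors or handling, were higher as a list. Of 14 genes 13 were higher, 2 at least 2-fold, with a median of 0.38. Fosb had 242 against 775 UMI, a log2 ratio of 2.02. Fos had 6.57 CPM (6.28 to 6.86) against 14.0 CPM (13.6 to 14.5), and Jun had 27.0 against 48.8 CPM. Fos was higher in each of the 6 groups of cells described below, from a log2 ratio of 0.75 in HSC-like to 2.23 in erythroid-like cells. The same list had a median of 0.61 in P0 LSK, and at P14 -0.23 in LK and -0.01 in LSK. The inducible heat shock genes Hspa1a (45 against 142 UMI) and Hspa1b (0.347 against 0.911 CPM) were also past 2-fold, while the other 8 counted heat shock genes were not.

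Metabolic lists shifted by small amounts. Of 18 glycolysis genes, enzymes and the transporters Slc2a1 and Slc16a3, 15 were higher with a median of 0.17. Among them were Ldha (878 against 983 CPM) and Gapdh (1754 against 2014 CPM). The list ran from Hk2, lower at a log2 ratio of -0.29, to Slc16a3 at 0.50. Ndufa4l2 encodes a mitochondrial protein and is induced by hypoxia. It had 70.8 CPM (69.8 to 71.7) against 122 CPM (120 to 123), a ratio of 0.78. Some other hypoxia-response genes, chosen after their values were seen, ranged from near 0 to a similar value. Those given here are P4ha2 0.84, Ankrd37 0.72, Bnip3 0.37, Egln3 0.27, Vegfa 0.08 and Pdk1 -0.04. Ndrg1, P4ha1, Plod2 and Pfkfb3 were also looked at, and their values are not reported here. Erythroid-like cells, a class described below, held 19798 of 21409 Ndufa4l2 UMI in Ifnar+/- and 27019 of 29033 in Ifnar-/- cells (log2 ratio 0.76). The Ndufa4l2 ratio was -0.02 in HSC-like, -0.79 in lymphoid-primed-like, -0.18 in monocyte progenitor-like and 0.50 in neutrophil progenitor-like cells. In the Prg2-Prss34 cluster Ndufa4l2 had 44 against 62 UMI (5.60 against 11.2 CPM). Of 27 ATF4 targets, genes of the amino acid stress response, 22 were higher with a median of 0.24, and Chac1 (45 against 86 UMI) was the 1 past 2-fold. Trib3 of the same response had 306 against 447 UMI (0.89). Lists of G1/S genes (median 0.01), G2M genes (0.04) and cholesterol synthesis (0.04) were near 0.

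Cells of both libraries were clustered together without the interferon, mitochondrial, sex and cell cycle genes. Clusters were named from marker lists, by a score chosen once the clusters were known. HSC-like cells (hematopoietic stem cell markers) made up 18.6% of Ifnar+/- and 14.6% of Ifnar-/- cells (1096 and 844 cells), a difference of -3.97 percentage points (95% counting interval -5.33 to -2.61). Over 7 other settings the class size varied widely, from 8.81% and 6.14% at resolution 0.5 to 26.7% and 20.7% at 15000 UMI or more. The difference ran from -2.64 to -6.02 points. Among the 10 leading genes of its clusters of 951 and 989 cells, 2 and 1 were HSC markers. Its CD48 antibody tag medians were 3897.5 and 4704.5, above 3386 and 3709 over all cells. Its CD150 medians were 19 and 16, beside 18 and 15 over all cells, and Flt3 RNA had 90.5 and 84.6 CPM. Whether the class holds stem cells or other progenitors was not tested. Erythroid-like cells made up 35.9% and 38.5%, a difference of 2.59 points (0.826 to 4.36), but of 5.09 points with Scrublet doublets removed and of 0.915 points, within counting error, in cells with at most 5% mitochondrial UMI. Neutrophil progenitor-like cells numbered 1354 and 1362, a difference in share of 0.633 points (-0.914 to 2.18) that was within counting error. That difference was -1.32 points at a coarser clustering (resolution 0.5) and 2.11 (0.651 to 3.58) without doublets, 2.12 (0.739 to 3.50) at most 5% mitochondrial UMI and 1.65 (0.261 to 3.03) at 15000 UMI or more. Neither share difference was stable over these settings. Monocyte progenitor-like cells made up 4.41% and 6.03%. Their cluster was led by F13a1, Irf8, Ms4a6c and Ly86 but held as many neutrophil as monocyte markers among its 10 leading genes (3 and 3), and the matching cluster was left unnamed at most other settings. Lymphoid-primed-like and megakaryocyte-like cells were smaller classes of 252 and 224, and 85 and 58 cells. A cluster of 199 and 181 cells led by eosinophil genes (Prg2, Prg3) together with basophil or mast genes (Prss34, Ms4a2) is given no cell type here and is called the Prg2-Prss34 cluster. The score named it eosinophil-like at this setting and left it unnamed at most other settings. The intervals cover the drawing of cells only, not mice.

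At the main setting the erythroid-like class was held largely by different clusters in the 2 libraries. Clusters of 1148 and 652 cells had 1141 and 650 Ifnar-/- cells, while clusters of 658, 627 and 369 cells had 654, 614 and 363 Ifnar+/- cells, and only a cluster of 881 cells held both in number (475 and 406). A setting added after seeing the data centred genes within each library, which removes mean differences between the libraries. Its erythroid-like clusters held 632 and 641, 559 and 537, 432 and 429, 395 and 390, and 261 and 284 Ifnar+/- and Ifnar-/- cells. A further cluster held 0 and 62, with Ndufa4l2 and Tph1 among its 10 leading genes. Its part in the Tph1 and Ndufa4l2 values above was not tested. With 1 library a genotype, clusters split by library cannot be told apart from a difference between libraries. Erythroid marker genes had a median log2 ratio of 0.15, 9 of 10 higher, and heme synthesis genes a median of 0.18. Of the globins, Hbb-bs had 5.79 against 13.3 CPM and Hba-a1 26.9 against 40.3 CPM, while Hbb-bt had 121 against 126 CPM. These sums mix classes: 0 of 4 globins were past 2-fold in erythroid-like cells (median 0.63), and 4 of 4 in lymphoid-primed-like cells (median 5.05). In those cells Hbb-bs had 16 against 590 UMI and Hba-a1 6 against 205 UMI, values chosen after they were seen. That class includes a cluster of 23 and 22 cells with Hbb-bs among its 10 leading genes. How many cells held these globin UMI was not counted. Most Hbb-bt UMI were in HSC-like cells, 25499 of 36725 in Ifnar+/- and 18530 of 30001 in Ifnar-/- cells. Erythroid-like cells held 3564 and 4919. Megakaryocyte markers leaned the other way with a median of -0.28: Pf4, a platelet chemokine, had 35.6 CPM (35.0 to 36.3) against 14.8 CPM (14.3 to 15.2), and Itga2b 19.5 against 16.7 CPM. HSC markers had a median of -0.23, with Mecom at 10.7 against 6.93 CPM and Hlf at 48.7 against 37.0 CPM. In P0 LSK the same list had a median of 0.98, with Mecom at 1.27 and Hlf at 0.84. At P14 its median was -0.10 in LK and 0.15 in LSK. Within the HSC-like class, which had a smaller share in Ifnar-/- cells, Procr was at 0.14 and Slamf1 at 0.15. Neutrophil markers had a median of 0.26, with Elane at 542 against 731 CPM and Mpo at 1048 against 1232 CPM. The 1 member past 2-fold, the granule gene Ltf, went the other way, with 257 against 66 UMI (log2 ratio -1.61).

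Interferon genes were also low when cells of 1 class were compared. The 5 named classes with 100 or more cells on each side, and the Prg2-Prss34 cluster, all had a median below 0. The median log2 ratios were -1.61 in lymphoid-primed-like, -1.58 in HSC-like, -1.43 in monocyte progenitor-like, -1.42 in erythroid-like, -1.34 in neutrophil progenitor-like and -0.85 in the Prg2-Prss34 cluster. Over all genes with enough UMI in a class, 134 (1.16%) were at least 2-fold lower and 2 (0.0173%) at least 2-fold higher in HSC-like cells. In erythroid-like cells these were 89 (0.743%) and 15 (0.125%), and in neutrophil progenitor-like cells 107 (0.925%) and 7 (0.0605%). Monocyte progenitor-like cells had 87 (0.908%) and 15 (0.156%), lymphoid-primed-like cells 114 (1.27%) and 9 (0.1%), and the Prg2-Prss34 cluster 54 (0.62%) and 9 (0.103%). In each of the 6 more genes were past 2-fold on the lower than on the higher side. A gene entered by its UMI in either library, and the Ifnar+/- library was the deeper one. Genes higher in Ifnar+/- cells could therefore enter at a lower CPM. The part of this rule in these counts was not tested. Isg15 had 103 CPM in Ifnar+/- against 1.85 in Ifnar-/- cells of the HSC-like class, 124 against 1.07 in the lymphoid-primed-like and 12.8 against 0.0579 in the erythroid-like class.

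Levels in Ifnar+/- cells themselves differed by class. Irf7 had 77.9 CPM in lymphoid-primed-like, 58.7 in HSC-like, 21.7 in monocyte progenitor-like, 16.4 in neutrophil progenitor-like, 16.3 in Prg2-Prss34 and 15.8 in erythroid-like cells. In Ifnar-/- cells Irf7 had 0.0661 CPM in erythroid-like and 1.45 CPM in HSC-like cells. B2m was further apart in HSC-like cells (725 against 322 CPM, log2 ratio -1.17) than in erythroid-like (192 against 118 CPM, -0.71) or Prg2-Prss34 cells (352 against 276 CPM, -0.35). H2-D1 was at -1.23 in HSC-like and -1.22 in lymphoid-primed-like cells, and at -0.31 in erythroid-like cells. Usp18 was counted mostly in 1 class of Ifnar-/- cells: of its 101 UMI in Ifnar-/- cells 79 were in erythroid-like cells, against 2 in HSC-like and 4 in neutrophil progenitor-like cells. Scaled to the UMI of each class, these were 0.653, 0.0882 and 0.0838 CPM.

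Single cells were compared at equal depth by thinning each cell to 7500 UMI. The list of 97 interferon genes without MHC class I and receptor genes gave a median of 25 UMI per thinned Ifnar+/- cell (quartiles 15 and 40) and 15 per Ifnar-/- cell (8 and 24). At least 5 UMI of that list were found in 99.3% and 92.0% of cells (100% and 99.9% without thinning), a count that includes Ifitm1 and Ifitm2, which were little apart. By class, the medians were 51 against 29 UMI in HSC-like, 43.5 against 19 in lymphoid-primed-like, 14 against 8 in erythroid-like and 31 against 28 in Prg2-Prss34 cells.

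A set of 14 interferon genes was also taken from the lowest ones after the values were seen (Isg15, Irf7, Rtp4, Ifi27, Ifi27l2a, Ifi44, Usp18, Oas1a, Oas2, Oas3, Oasl1, Oasl2, Ifit1 and Ifit3), so the direction of its difference is fixed by the choice and its shares are a description. At least 1 UMI of the set was found in 76.0% of thinned Ifnar+/- cells (exact 95% interval 74.9 to 77.0) and 6.29% of Ifnar-/- cells (5.68 to 6.95). The share was 95% against 14.6% in HSC-like, 93.7% against 10.3% in lymphoid-primed-like, 85% against 4.89% in monocyte progenitor-like and 61.7% against 2.66% in erythroid-like cells. Without thinning it was 98.5% and 21.1%, at median depths of 46231 and 37733 UMI. The median Ifnar+/- cell had 2 UMI of the set and the highest 64, while the highest Ifnar-/- cell had 4. A UMI in a cell can come from free RNA: in barcodes with 100 UMI or fewer, Isg15 had 32 CPM against 0.299 CPM, close to 33.6 and 0.479 CPM in cells. Its part in these shares was not tested.

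**Figure D4:**
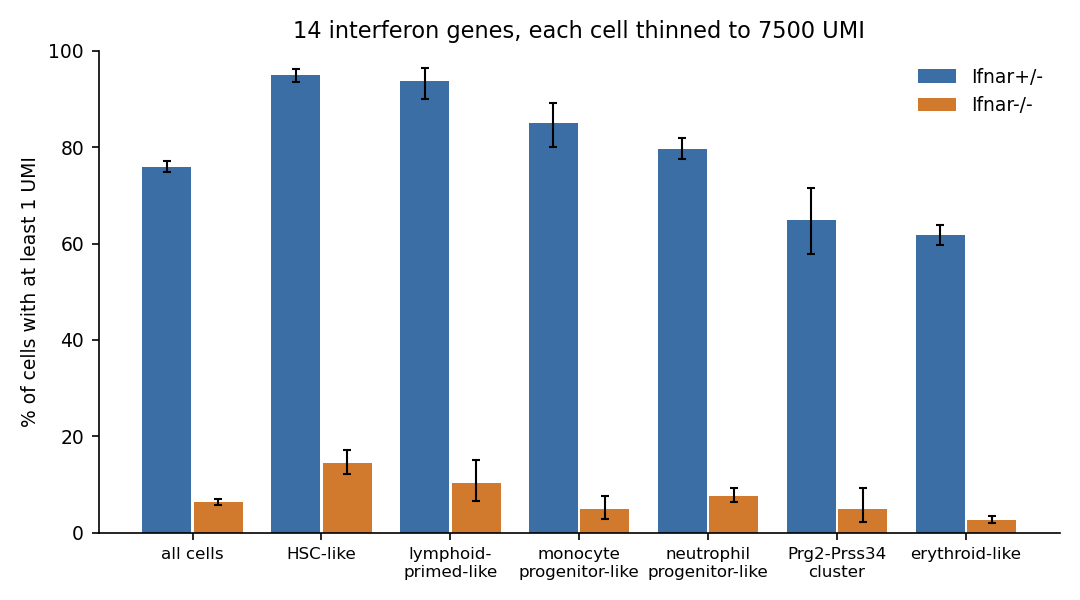
Share of cells (%) with at least 1 UMI of 14 interferon genes after thinning each cell to 7500 UMI, by class, for Ifnar+/- (blue) and Ifnar-/- (orange) cells, with exact 95% intervals that cover counting error only. The 6 groups with 100 or more cells on each side, drawn beside all cells, lie between 61.7% and 95% in Ifnar+/- and between 2.66% and 14.6%.

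Of the 10 antibody tags, 1 (10%) differed at least 1.5-fold by its share of all tags. SA_PE, for which the features name no target, made up 2.54% of tags in Ifnar+/- and 0.850% in Ifnar-/- cells, a ratio of 0.335, with medians of 41 and 20 tags per cell. Its medians were 296 against 96 in HSC-like, 216 against 57 in lymphoid-primed-like, 56 against 16 in monocyte progenitor-like and 28 against 18 in erythroid-like cells. Its lowest medians, 18 against 10, were in the Prg2-Prss34 cluster. Ly6a RNA, given beside it with no link drawn, had 66.8 against 12.3 CPM in HSC-like, 47.4 against 3.04 CPM in lymphoid-primed-like and 0.340 against 0.0579 CPM in erythroid-like cells. In free tags SA_PE went the other way, 4.14% and 6.15%.

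**Figure D5:**
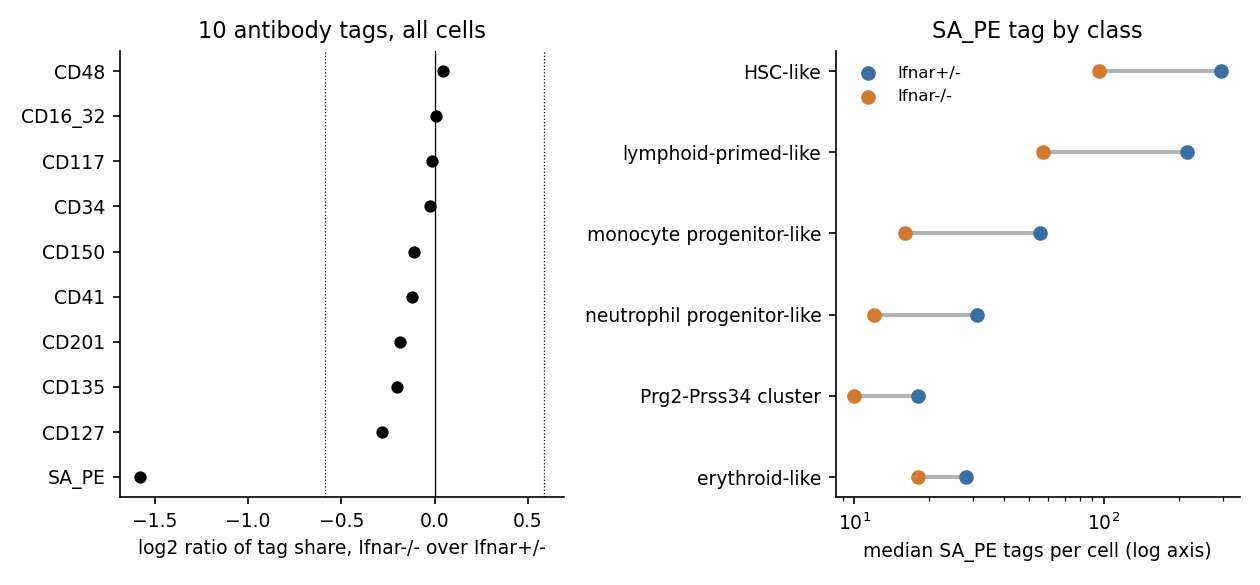
Left, log2 ratio of each tag's share of all tags, Ifnar-/- over Ifnar+/-, with 1.5-fold marked by dotted lines; right, median SA_PE tags per cell (log axis) in 5 classes and the Prg2-Prss34 cluster, of Ifnar+/- (blue) and Ifnar-/- (orange) cells. SA_PE alone lies past 1.5-fold, at a share ratio of 0.335, and its median is lower in Ifnar-/- cells of each class, as 296 against 96 in HSC-like cells.

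The tags for known proteins were closer. CD117, the Kit protein, had medians of 722 and 771 tags per cell and 16.4% and 16.3% of tags. CD48, the largest tag, had 71.3% and 73.5% of tags. CD150, CD41, CD34 and CD201 had share ratios of 0.926, 0.919, 0.985 and 0.881, and the lymphoid receptors CD127 and CD135 had 0.822 and 0.869. CD127 had lower share ratios in some classes, 0.60 in HSC-like cells (medians 12 and 8) and 0.661 in the Prg2-Prss34 cluster (8 and 6). CD16_32, the Fc gamma receptors, had a share ratio of 1.01 over all cells, although its median cell had 58 and 43 tags, a ratio of 0.741. Its share ratio was 0.534 in HSC-like cells (medians 44 and 26), 0.581 in lymphoid-primed-like cells (45 and 28) and 0.768 in erythroid-like cells (41 and 32). In neutrophil progenitor-like cells, which carry far more of the tag, the CD16_32 medians were 399.5 and 413. RNA of its genes in HSC-like cells was 4.84 against 5.95 CPM for Fcgr3 and 3.84 against 4.72 CPM for Fcgr2b.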

How the data were processed

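The authors deposited raw UMI counts per feature and barcode, without normalization or a cell filter, over 32285 genes and 10 tags. The submitters' processing notes name Cell Ranger 6.0.1 and mm10, and the file headers name Cell Ranger 4. The annotation release is not given in the sources used here. Coordinates come from RefSeq on GRCm38.p6, matched by symbol. Y-linked genes were found by the same match, so a Y-linked gene without a matching RefSeq symbol could remain. Members, gene lists and the rule for named genes were chosen with earlier results of these data known. Counts were summed over cells, scaled to CPM of total gene UMI, and log2 ratios taken after adding 0.5 counts. Genes needed 50 UMI in 1 library, list genes 20 UMI in both together. Named genes were the 15 highest and 15 lowest among genes with at least 200 UMI (Xist, Tsix and Y-linked genes left out), the 15 lowest outside the interferon lists, of each interferon list the 4 with most CPM and the 4 with the largest ratio, of marker lists the 4 and of other lists the 3 with most CPM and up to 3 past 2-fold, and the receptor, sort and tag genes. H2-D1, H2-K1, Herc6, Ifi204, Ifi205, Psmb10, Rsad2, Slfn5 and Tyk2 were chosen after their values were seen. Some list members enter the counts and medians but are not reported here by name. Clustering used scanpy 1.11.5 and igraph 0.11.9 (2000 variable genes, 30 components, 15 neighbours, resolution 1). A class name needed a marker score of at least 0.5 and 3 detected markers. Poisson, Clopper-Pearson and binomial intervals cover counting error only. The ratio calculation was tested on simulated data. Alternatives varied filters, scaling (edgeR 4.0.16 TMM), pseudocount, doublets and clustering.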

Additional observations from a re-analysis of the deposited data

Results flagged for a closer look

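Of the 13 genes that were 2-fold lower here and 2-fold higher in P0 LSK, 2 were flagged, Mcpt4 and Fabp4. Ltf, another of the 13, is given above with the neutrophil markers. The difference between the pairs was not tested. Mcpt4, a mast cell protease, had 484 against 4 UMI here (log2 ratio -6.41) and 23 against 1405 UMI in P0 LSK (6.28). Fabp4, a fatty acid binding protein, had 219 against 17 UMI here (-3.30) and 150 against 437 UMI in P0 LSK (1.92). Mcpt4 UMI were found in 0.238% of Ifnar+/- and 0.0694% of Ifnar-/- cells, so few cells set its value, and basophil or mast-like cells numbered 15 and 7.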

How the results depend on the processing

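No paired analysis was possible because each group had 1 library, and for the same reason no replicate could be left out. The interferon median lay below 0 in each alternative run and moved most with 5 CPM added, to -0.52. Adding 5 CPM left 44 lower and 1 higher genes, and the log2 ratios of Irf7, Isg15, Ifi27, Ly6a, Mid1, Fos and Trib3 became -2.41, -2.82, -3.48, -1.31, -1.05, 0.72 and 0.19; these single-gene alternatives were added after seeing the data. Trib3 was 0.32 with classes weighted equally. A gene minimum of 10 UMI gave 423 lower and 120 higher, one of 200 UMI 102 and 9, a 1.5-fold threshold 414 and 91, and a 3-fold threshold 93 and 6. Equal weights for cell classes gave 38 higher genes, and erythroid-like cells alone, added after seeing the data, 89 lower and 15 higher. TMM and median-of-ratios scaling shifted all ratios by 0.027 and 0.029. The HSC-like difference, with settings added after seeing the data, was -6.02 points at 15000 UMI or more. The erythroid-like difference became 5.09 points without Scrublet doublets, and the neutrophil progenitor-like difference changed sign to -1.32 points (-3.03 to 0.389) at resolution 0.5; the causes were not tested. The difference in cells with at least 5 interferon UMI, -7.28 points, was -1.65 with at least 3 UMI, -21.1 with at least 10 UMI, -0.0520 without thinning and -0.435 at 15000 UMI, and -69.7 for the 14 genes chosen after seeing the data. Genes with a few UMI have wide counting intervals.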
